A study of Sus scrofa with 6 samples.

Results

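The genes described here encode 10 enzymes that remove peroxides and superoxide: the peroxiredoxins PRDX1 to PRDX6, the glutathione peroxidases GPX1 and GPX4, the mitochondrial superoxide dismutase SOD2 and catalase (CAT). They were chosen by symbol, and each of the 10 symbols matched 1 of the 31908 Ensembl pig gene IDs listed. RNA came from IPEC-J2, a pig cell line derived from the lining of the small intestine. The CON group (3 libraries) was given PBS and the CDCA group (3 libraries) was given 50 μM chenodeoxycholic acid, a primary bile acid, both for 24 h. All 6 libraries are of 1 cell line, and the labels do not say whether the 3 of a group came from separate cultures, so the p-values measure only the spread between these libraries. The values are in TPM, a unit scaled by transcript length and library total that can be compared between genes. Read counts per gene were not used here, so the number of reads behind a single value is unknown.

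Superoxide that leaks from the respiratory chain is turned into hydrogen peroxide by superoxide dismutases. Catalase splits hydrogen peroxide in peroxisomes, while peroxiredoxins and glutathione peroxidases reduce it, and lipid peroxides as well, in several compartments of the cell. Peroxiredoxins react through a cysteine. In many of them, though not in all, thioredoxin, kept reduced by thioredoxin reductase and NADPH, restores it. Sulfiredoxin (SRXN1) rescues over-oxidized members of the typical 2-Cys class, which PRDX5 and PRDX6 are not part of. GPX1 and GPX4 carry selenocysteine and draw on glutathione, and GPX4 is the enzyme best known for reducing lipid peroxides within membranes, the step whose loss leads to ferroptosis.

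Of the epithelial markers, KRT8, KRT18, KRT7, EPCAM and CLDN4 were above 1 TPM, whereas CDH1 and CLDN7 lay under 1 TPM. The 7 listed epithelial markers summed to 703 to 725 TPM in CON and to 1231 to 1374 TPM in CDCA, and CLDN4 went from 215 to 237 TPM up to 765 to 863 TPM. EPCAM, KRT18 and CLDN4 were higher in CDCA (limma FDR under 0.05), KRT7 was lower, and KRT8 did not pass the test. All 6 fibroblast and all 3 smooth muscle markers had means under 1 TPM. PTPRC, the defining marker of immune cells, was at or near 0, while LYZ lay between 15.8 and 19.9 TPM and CD68 went from 0 to 0.26 TPM in CON to between 4.44 and 5.33 TPM in CDCA. The endothelial markers summed to 1.29 to 2.37 TPM and the 4 listed enterocyte markers to 1.16 to 2.08 TPM, with FABP2 near 0. The mRNAs encoded by mitochondrial DNA (mtDNA) made up 13.8% to 15.03% of the summed listed TPM of a CON library. In a CDCA library they made up 2.90% to 3.45%. The listed rows hold only part of a library's TPM, so these are not shares of a full total. CON replicate 3 and CDCA replicate 2 lay apart from the other 4 libraries on the second principal component, which held 11.4% of the variance. The part of these differences in the results was not tested, other than by the fits without these 2 libraries and without the mtDNA-encoded genes given below.

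GPX4 and PRDX4 were lower in the CDCA group, PRDX5 was slightly lower and SOD2 was somewhat higher, while CAT, GPX1, PRDX6, PRDX2 and PRDX1 did not pass the test. Genes were compared by limma on log2(TPM + 1) for the 8708 genes whose mean over the 6 libraries reached 1 TPM, with p-values adjusted over all of them (FDR). Of the 9 tested members, 3 had an FDR under 0.05 and were lower in CDCA, against 23.9% of all tested genes, and 1 was higher, against 29.3%. None changed by more than 2-fold (log2 fold change over 1 in size), as 3.51% of all tested genes did upward and 3.90% downward. The CDCA libraries all lay below the CON libraries for 3 members and all above for 2, against 27.8% and 33.8% of all tested genes. With so few members these shares lie near those of all genes, and nothing particular to the set is read from them. The median log2 fold change was -0.15 over the 9 members and 0.05 over all tested genes. The members' median is the value of PRDX1, which rests on 2 libraries, and it ranged from -0.21 without CON replicate 1 to 0.017 without CDCA replicate 3, so no direction is read from it. In the plot by library, the spread within a group was small beside the distance between the groups for GPX4 and PRDX4, and the groups mixed for PRDX6, GPX1 and PRDX2.

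**Figure D1:**
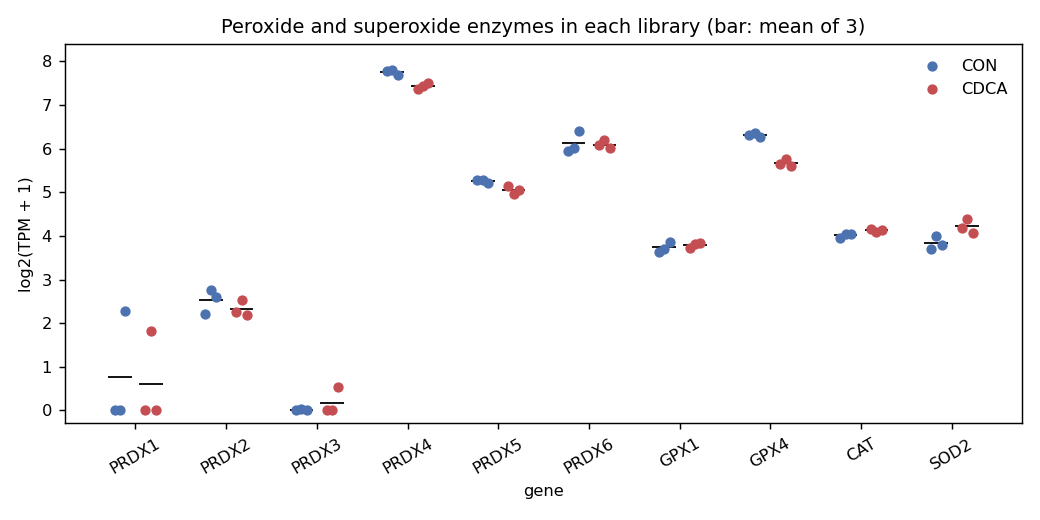
Level of each of the 10 genes as log2(TPM + 1) in each library, with CON in blue, CDCA in red and a black bar at the mean of 3 libraries. PRDX4 has the highest listed level in both groups, GPX4 is lower in all 3 CDCA libraries, and PRDX3 and most libraries of PRDX1 lie at or near 0.

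PRDX4 (ENSSSCG00000012171) is the peroxiredoxin of the endoplasmic reticulum (ER), where it uses the peroxide made during disulfide formation. Among the 8 members with a usable value (PRDX1 and PRDX3 excepted, as described below) it was the most abundant, above 97.4% of all tested genes by its mean TPM. It had 217, 221 and 204 TPM in the CON libraries, against 165, 172 and 180 TPM after CDCA. The groups did not overlap, with the CDCA libraries lower and a mean ratio of 0.804. Its log2 fold change came to -0.31 (SE 0.05, limma FDR 0.0019), and leaving out any single library moved it no further than -0.35 or -0.28. In bulk libraries a lower level in every cell and fewer cells with the transcript cannot be told apart.

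PRDX5 (ENSSSCG00000013030) is found in mitochondria, peroxisomes and the cytosol. It had 37.7, 38.1 and 36.3 TPM in the CON libraries, against 34.2, 30 and 32.3 TPM after CDCA. The groups did not overlap, though the lowest CON library and the highest CDCA library were close. Its log2 fold change came to -0.21 (SE 0.06, limma FDR 0.019), and without CON replicate 2 the limma FDR was 0.062.

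PRDX6 (ENSSSCG00000022742), the peroxiredoxin with a single active cysteine and with phospholipase activity, had 60.3, 64.1 and 83.6 TPM in the CON libraries, against 66.7, 72.3 and 63.3 TPM after CDCA. CON replicate 3 was the highest of all 6 libraries, and the other libraries were mixed. The log2 fold change was -0.03 (95% interval -0.32 to 0.27, limma FDR 0.87), and without CON replicate 3 it was 0.11 (limma FDR 0.22).

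PRDX2 (ENSSSCG00000013736), a cytosolic peroxiredoxin best known from red blood cells, had 3.60, 5.74 and 5.08 TPM in the CON libraries, against 3.74, 4.82 and 3.55 TPM after CDCA. Its groups overlapped, with a log2 fold change of -0.20 (95% interval -0.60 to 0.21, limma FDR 0.36).

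PRDX1 and PRDX3, the main cytosolic and the mitochondrial peroxiredoxin of most cells, were listed near 0. PRDX1 (ENSSSCG00000003914) had 0, 0 and 3.82 TPM in the CON libraries, against 0, 2.53 and 0 TPM after CDCA. The 2 libraries with a value above 0 were the same 2 that stood apart on the second principal component. Its mean of 1.06 TPM just passed the filter, and its log2 fold change of -0.15 (95% interval -1.97 to 1.67) gives no measurement of a difference. PRDX3 (ENSSSCG00000010682) had 0, 0.02 and 0 TPM in the CON libraries, against 0, 0 and 0.45 TPM after CDCA, and was not tested. No other listed gene ID is described as either of them. A listed 0 can be a failed estimate, so no statement on the expression of these 2 genes is made here. SOD1, the cytosolic superoxide dismutase, was in the same position, listed at 0 in all 6 libraries.

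GPX4 (ENSSSCG00000024052) had the largest change among the 9 tested members. It had 79.0, 80.6 and 76.1 TPM in the CON libraries, against 49.2, 53.4 and 47.5 TPM after CDCA. All 3 CDCA libraries lay far below the CON libraries relative to the spread within either group, and the mean fell from 78.6 ± 2.3 to 50.04 ± 3.1 TPM (SD, n = 3), a ratio of 0.637. The log2 fold change was -0.64 (SE 0.05, 95% interval -0.77 to -0.51, limma FDR 0.00012). Of all tested genes, 10.1% had a lower log2 fold change. Leaving out any single library gave values from -0.69 to -0.61. Only 1 transcript of GPX4 is listed, so its cytosolic, mitochondrial and nuclear forms could not be told apart.

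GPX1 (ENSSSCG00000033727), the general cytosolic glutathione peroxidase, had 11.5, 12.0 and 13.6 TPM in the CON libraries, against 12.2, 13.1 and 13.3 TPM after CDCA. These groups overlapped, and the log2 fold change was 0.06 (95% interval -0.12 to 0.24, limma FDR 0.55). The ratio of GPX4 to GPX1 within a library was 6.90, 6.71 and 5.59 in CON and 4.02, 4.08 and 3.57 in CDCA. The 2 glutathione peroxidases thus shifted relative to each other in every CDCA library (two-sided p = 0.1 by an exact permutation test, which cannot go lower with 3 libraries against 3).

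SOD2 (ENSSSCG00000040317), the manganese superoxide dismutase of the mitochondrial matrix, had 12.0, 14.9 and 12.8 TPM in the CON libraries, against 17.2, 20.0 and 15.9 TPM after CDCA. The lowest CDCA library lay just above the highest CON library. The log2 fold change was 0.39 (SE 0.11, limma FDR 0.021). It stayed above 0 in every alternative fit, but the call was lost without CON replicate 1 (log2 fold change 0.33, limma FDR 0.062), CON replicate 3 (0.37, limma FDR 0.060) or CDCA replicate 2 (0.30, limma FDR 0.056). The call was also lost with mtDNA-encoded genes taken out of the totals (log2 fold change 0.25, limma FDR 0.081), and with no filter on low values, which left the fold change as it was (limma FDR 0.053).

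CAT (ENSSSCG00000013302) had 14.5, 15.5 and 15.5 TPM in the CON libraries, against 16.9, 15.97 and 16.7 TPM after CDCA. The CDCA libraries all lay above the CON libraries by a small margin, with means of 15.1 ± 0.59 and 16.5 ± 0.49 TPM (SD, n = 3). The log2 fold change of 0.12 (95% interval -0.01 to 0.25) had a limma FDR of 0.10 and did not pass the test. With mtDNA-encoded genes taken out of the totals, the log2 fold changes of CAT (-0.026) and GPX1 (-0.084) were on the other side of 0.

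That scaling used the totals of the listed rows, which hold only part of a library's TPM. What a full total would give was not tested. The scaling lowered the median log2 fold change of all tested genes from 0.05 to -0.08. It changed the split of genes with an FDR under 0.05 from 2550 higher and 2085 lower to 1750 higher and 2781 lower. GPX1 lay close to that median and CAT above it. GPX4, PRDX4 and PRDX5 kept an FDR under 0.05 and their direction in it, as they did with libraries brought to the same median ratio or rescaled to a common sum. Without CON replicate 3 and CDCA replicate 2, a choice made after seeing the data, the same 3 genes were lower with an FDR under 0.05, while SOD2 had a log2 fold change of 0.29 (limma FDR 0.12). In the plot of scalings, GPX4 had the lowest and SOD2 the highest value under each of the 4 scalings, with PRDX4 next to GPX4.

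**Figure D2:**
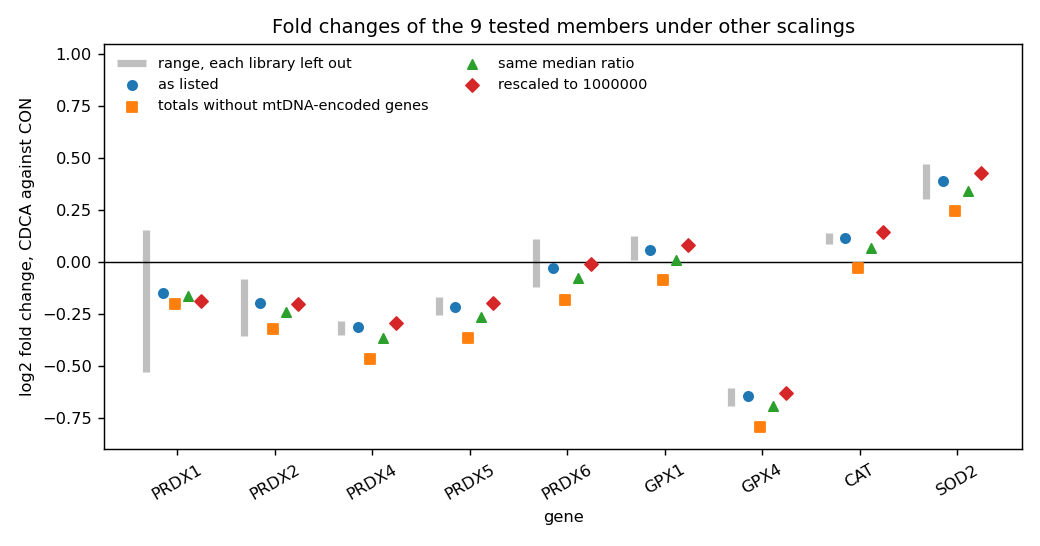
Log2 fold change (CDCA against CON, on log2(TPM + 1)) of the 9 tested members with the values as listed and under 3 other scalings, with a grey bar for the range when each library is left out. GPX4, PRDX4 and PRDX5 lie below 0 and SOD2 above 0 throughout, whereas CAT and GPX1 cross 0 without the mtDNA-encoded genes and PRDX6 and PRDX1 cross it when libraries are left out.

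By level, and leaving out PRDX1 and PRDX3, the members in CON ran from PRDX4 through GPX4, PRDX6, PRDX5, CAT, SOD2 and GPX1 to PRDX2. GPX4 and PRDX6 overlapped in CON, as did CAT with SOD2 and SOD2 with GPX1. In CDCA, PRDX6 (63.3 to 72.3 TPM) lay above GPX4 (47.5 to 53.4 TPM) in all libraries, SOD2 and CAT overlapped, and GPX1 lay below both. The ratio of PRDX6 to GPX4, picked after its values were seen and given without a test, was 0.763, 0.796 and 1.10 in CON and 1.36, 1.35 and 1.33 in CDCA.

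The 6 peroxiredoxins together summed to 319, 329 and 333 TPM in CON and to 269, 282 and 279 TPM in CDCA. The sum was lower in all 3 CDCA libraries, with a ratio of 0.846 (exact permutation, two-sided p = 0.1). PRDX4 made up 61.3% to 68.2% of this sum in CON and 61.0% to 64.4% in CDCA, and ranges of the 2 groups overlapped. Without PRDX4, the other 5 summed to 113 ± 14 TPM in CON and 105 ± 5.0 TPM in CDCA (SD, n = 3; exact permutation, two-sided p = 0.5), which overlapped. GPX4 took 16.9% to 18.1% of the TPM of all 10 members in CON and 12.7% to 13.9% in CDCA, while SOD2 took 2.75% to 3.29% and then 4.25% to 5.21%. These sums hold PRDX1 and PRDX3 as listed and would be larger if those genes were missed.

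The 10 genes have 24 listed transcripts, of which 13 had a mean of at least 1 TPM and were tested among 12205 transcripts. Of these 13, 3 were lower in CDCA with an FDR under 0.05, against 18.7% of all tested transcripts, and 2 were higher, against 23.1%. The transcripts carry no IDs in the table and are named by their rank in mean TPM. The first PRDX4 transcript, which held 97.7% of the TPM of the gene, had 213, 218 and 201 TPM in the CON libraries, against 160, 167 and 174 TPM after CDCA (log2 fold change -0.33, limma FDR 0.0028). The second went the other way: it had 2.96, 2.94 and 2.87 TPM in the CON libraries, against 4.73, 4.65 and 5.17 TPM after CDCA (log2 fold change 0.58, limma FDR 0.0026). The lower gene sum of PRDX4 therefore covers 1 abundant transcript that was lower and 1 minor transcript that was higher.

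For PRDX5, the first transcript had 20.9, 23.2 and 19.2 TPM in the CON libraries, against 18.04, 14.4 and 16.9 TPM after CDCA (log2 fold change -0.35, limma FDR 0.038). The second had 15.3, 13.1 and 15.3 TPM in the CON libraries, against 14.0, 14.3 and 13.4 TPM after CDCA, with a log2 fold change of -0.06 (limma FDR 0.58). Whether these 2 transcripts differed from each other was not tested. The first SOD2 transcript held 98.6% of the gene and followed it (log2 fold change 0.39, limma FDR 0.034). The 2 CAT transcripts, at 11.2 and 3.98 TPM in CON, against 11.9 and 4.63 TPM in CDCA as means, did not pass the test (limma FDR 0.35 and 0.13). The PRDX5 and SOD2 transcript calls turned on single libraries: without CON replicate 1, or without CDCA replicate 2, neither had an FDR under 0.05, and 3 of the 5 calls were left, those of GPX4 and of both PRDX4 transcripts. SOD2 was also lost without CON replicate 3 or CDCA replicate 1, and PRDX5 without CON replicate 2 or CDCA replicate 3.

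**Figure D3:**
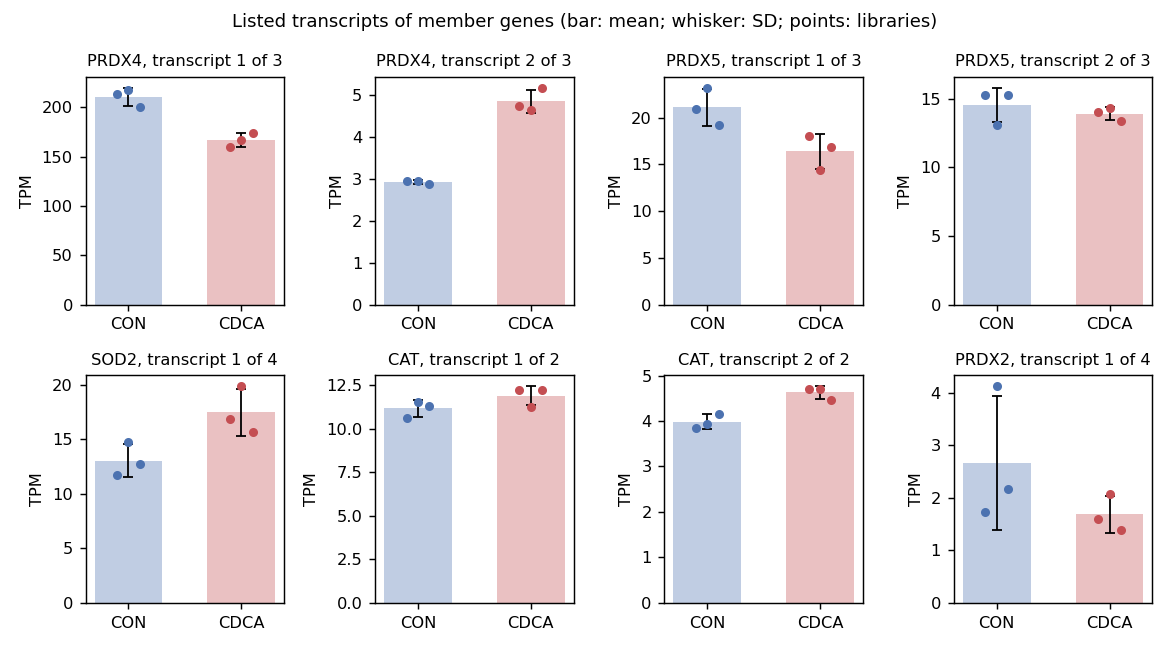
TPM of 8 listed transcripts of member genes in each library (points), with the mean (bar from 0) and SD (whisker) of 3 libraries per group. The first and second PRDX4 transcripts differ in opposite directions between CON and CDCA, and both CAT transcripts differ by little.

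The thioredoxin arm holds factors that reduce or repair some peroxiredoxins, and related genes. Of its 10 genes, 7 were tested, and their log2 fold changes had a median of 0.48. At an FDR under 0.05, SRXN1, TXNRD1, TXN, TXNL1 and TXNDC17 were higher in CDCA and TXNRD2 was lower, against 29.3% and 23.9% of all tested genes. SRXN1 rose from 65.8, 65.6 and 61.0 TPM to 201, 218 and 206 TPM (log2 fold change 1.68, SE 0.05, limma FDR 3.1e-06). Cytosolic thioredoxin reductase, TXNRD1, rose from 30.2, 29.1 and 27.2 TPM to 59.2, 63.9 and 60.4 TPM (log2 fold change 1.06, limma FDR 1.9e-05), but was 0.91 with mtDNA-encoded genes taken out of the totals. Both were above the CON libraries in every CDCA library.

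Thioredoxin itself (TXN) went from 12.3, 16.8 and 14.6 TPM to 20.4, 18.6 and 22.7 TPM (log2 fold change 0.48, limma FDR 0.015). Its limma FDR was 0.061 with mtDNA-encoded genes taken out of the totals, and 0.13 for its highest listed transcript alone. The thioredoxin-like TXNL1 rose from 1.91 ± 0.098 to 5.74 ± 0.40 TPM (SD, n = 3). The mitochondrial reductase TXNRD2 fell from 6.05, 6.96 and 7.35 TPM to 3.92, 5.26 and 4.22 TPM (log2 fold change -0.51, limma FDR 0.0096), and mitochondrial thioredoxin, TXN2, had a mean under 1 TPM and was not tested. The ratio of TXNRD1 to TXNRD2, picked after the values of both genes were seen and therefore given without a test, ran from 3.70 to 4.99 in CON and from 12.1 to 15.1 in CDCA.

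**Figure D4:**
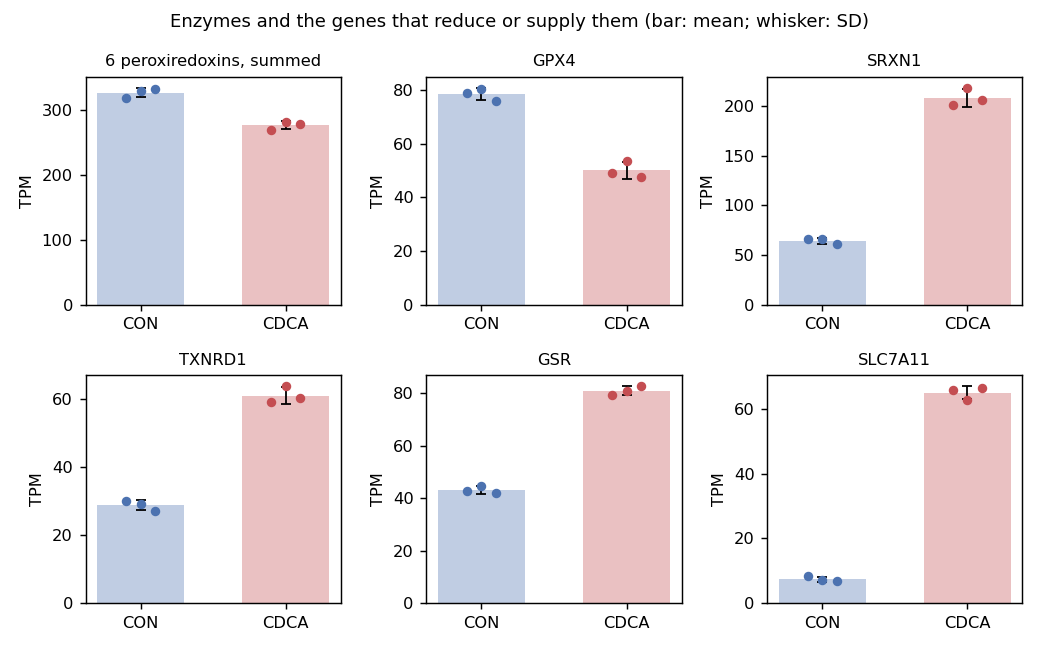
TPM in each library (points), mean (bar from 0) and SD (whisker) of the 6 summed peroxiredoxins, GPX4, SRXN1, TXNRD1, GSR and SLC7A11 in CON and CDCA, 3 libraries each. The summed peroxiredoxins and GPX4 are lower in CDCA and the other 4 panels are higher, with no overlap between the groups in any panel.

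Around GPX1 and GPX4, all 10 genes of glutathione supply and glutaredoxins were tested, with 5 higher and 3 lower (29.3% and 23.9% of all tested genes) and a median log2 fold change of 0.31. Glutathione reductase, GSR, rose from 42.7, 44.6 and 41.9 TPM to 79.4, 81.1 and 82.7 TPM (log2 fold change 0.90, limma FDR 1.2e-05). Within a library the ratio of GSR to GPX4, likewise picked after its values were seen, ran from 0.541 to 0.553 in CON and from 1.52 to 1.74 in CDCA. GCLC, the catalytic subunit of the first step of glutathione synthesis, was listed at 0.64, 0.15 and 0.14 TPM in the CON libraries and at 1.81, 2.35 and 3.34 TPM after CDCA. It passed the filter only through the CDCA libraries, so its call is no support for a difference, and its log2 fold change was 1.42 with the pseudocount of 1 TPM and 2.83 with 0.1 TPM. CHAC1, which breaks glutathione down, rose from 6.15 ± 1.2 to 51.8 ± 2.3 TPM.

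Of the 14 genes listed for lipid peroxides and ferroptosis, 7 were tested, with 4 higher and none lower (29.3% and 23.9% of all tested genes) and a median log2 fold change of 0.62. The cystine importer SLC7A11 rose from 8.23, 7.25 and 6.70 TPM to 66.0, 62.8 and 66.6 TPM (log2 fold change 2.98, SE 0.07, limma FDR 2.5e-06). Its partner SLC3A2 rose from 52.3 ± 1.4 to 190 ± 13 TPM, and the ferritin light chain FTL from 968 ± 36 to 3906 ± 288 TPM (SD, n = 3). GPX4 was lower in the same libraries in which the transporter that feeds glutathione synthesis was higher. ACSL4 and LPCAT3, which make the lipids that GPX4 protects, were listed under 1 TPM, from which no absence is read.

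Selenocysteine enters GPX1 and GPX4 through a set of dedicated factors. Of 10 such genes 8 were tested, with 1 higher and 3 lower (29.3% and 23.9% of all tested genes) and a median log2 fold change of -0.23. The elongation factor EEFSEC went from 3.50 ± 0.23 to 1.88 ± 0.42 TPM (log2 fold change -0.66, limma FDR 0.0059), and SECISBP2, which binds the selenocysteine insertion element, from 6.24 ± 0.81 to 8.95 ± 0.70 TPM (SD, n = 3; log2 fold change 0.46, limma FDR 0.0090). When only the highest listed transcript was taken, neither passed: EEFSEC was smaller in size at -0.33 (limma FDR 0.22), while SECISBP2 was larger at 0.56 (limma FDR 0.052). RPL30, a ribosomal protein that also binds this element, had a log2 fold change of -0.45 (limma FDR 0.021), which was lost without CDCA replicate 1 (limma FDR 0.065), without CDCA replicate 3 (0.058) or with no filter on low values (0.051).

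For PRDX4, 8 of 9 genes of oxidative folding in the ER were tested, with 2 higher and none lower (29.3% and 23.9% of all tested genes) and a median log2 fold change of 0.08. ERO1B, an oxidase that makes hydrogen peroxide in the ER, rose from 5.67, 4.43 and 3.22 TPM to 10.9, 10.5 and 10.98 TPM (log2 fold change 1.14, limma FDR 0.0012), and was at 0.97 without CON replicate 3. PDIA4, a disulfide isomerase, had a log2 fold change of 0.12 (limma FDR 0.020). The PDIA4 value was -0.037 with mtDNA-encoded genes taken out of the totals, and its call was lost without CON replicate 2 (limma FDR 0.059), CDCA replicate 1 (0.058) or CDCA replicate 3 (0.072). It was also lost with libraries brought to the same median ratio (log2 fold change 0.065, limma FDR 0.095) and with limma without a trend (limma FDR 0.098). PRDX4 was lower in the same CDCA libraries.

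For CAT, 15 of 22 genes of peroxisome import and peroxisomal oxidases were tested, with 5 higher and 3 lower (29.3% and 23.9% of all tested genes) and a median log2 fold change of 0.20. PEX13, part of the import channel, was higher (log2 fold change 0.45, limma FDR 0.0024), and PEX26, an anchor of the import machinery, was lower (log2 fold change -0.57, limma FDR 0.0010). None of the 15 genes reached the limit of 2-fold.

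Among 9 other glutathione peroxidases and superoxide dismutases, only the extracellular SOD3 was tested. It fell from 23.1, 40.1 and 43.0 TPM to 17.1, 15.5 and 12.7 TPM (log2 fold change -1.14, limma FDR 0.0065). Without CON replicate 3 the log2 fold change of SOD3 was -0.98, under the limit for a call, and without CON replicate 3 and CDCA replicate 2 the limma FDR was 0.052. The mitochondrial SOD2 was higher and the secreted SOD3 lower in the same libraries. GPX2, the intestinal glutathione peroxidase, was listed between 0.05 and 0.10 TPM, and GPX3, GPX5 and GPX7 were listed at 0 in all 6 libraries.

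Of 15 genes of the NADPH oxidases, a source of superoxide and peroxide, the subunits CYBA and NOXA1 were tested and neither passed (median log2 fold change 0.15). NOX1, NOX4 and DUOX2 were listed under 1 TPM, from which no absence is read. Of 14 regulators of antioxidant genes 11 were tested, with 10 higher and none lower (29.3% and 23.9% of all tested genes) and a median log2 fold change of 0.42. NFE2L2 (NRF2), the main activator of genes with an antioxidant response element, went from 40.3, 40.6 and 38.0 TPM to 68.0, 63.7 and 71.5 TPM (log2 fold change 0.76, limma FDR 6.8e-05). Its relative NFE2L1 rose from 27.1 ± 2.5 to 63.5 ± 0.60 TPM, and MAFF, a small partner protein of both, from 4.01 ± 0.54 to 15.8 ± 1.1 TPM (SD, n = 3). Over the 9 lists together, 11 of 69 tested genes passed the 2-fold limit upward and 1 downward. Of all tested genes, 3.51% and 3.90% did. GCLC is among the 11, though it passed the filter only through the CDCA libraries. The lists were chosen with earlier results of these data known, so nothing is read from these shares. No member passed the 2-fold limit in either direction. Whether the members differed from these lists was not tested.

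**Figure D5:**
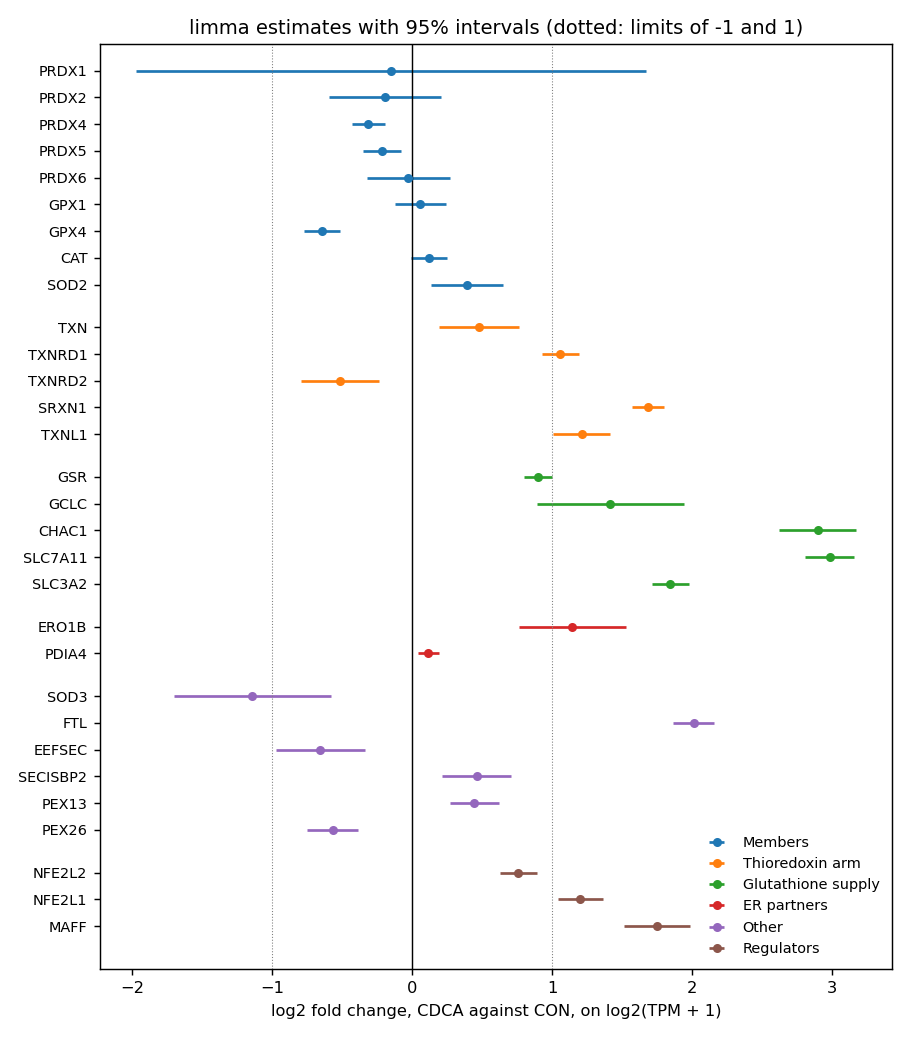
Log2 fold change (CDCA against CON, on log2(TPM + 1)) with 95% intervals from limma for the 9 tested members and for named genes around them, with dotted lines at -1 and 1. All member estimates lie between the dotted lines, while SRXN1, TXNL1, CHAC1, SLC7A11, SLC3A2, FTL, NFE2L1 and MAFF lie above 1 with their whole interval.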

How the data were processed

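RNA-seq covered 6 libraries of IPEC-J2 cells. The deposited table gives 1 TPM per library, computed by the authors with RSEM, for each of 63041 transcripts. The submitters' processing notes name Bowtie 0.12.2 and the mouse build mm10, whereas the gene IDs are Ensembl pig IDs; the build behind the values was not settled, and no coordinates are given. Summed over all rows, TPM came to between 351770 and 366073 in a library.

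TPM were summed per gene ID. Members were matched by the symbol in the table. Genes of the lists were matched by that symbol, then by a table of Ensembl symbols, and 6 IDs by their description. CDCA and CON were compared with limma 3.58.1 in R 4.3.3 (lmFit, eBayes with a trend) on log2(TPM + 1), so fold changes of low genes are understated, for genes and, in a separate fit, for transcripts whose mean over the 6 libraries reached 1 TPM. P-values were adjusted by Benjamini-Hochberg over all features tested (FDR), and a call needed an FDR under 0.05 and a log2 fold change over 1 in size; the text says where the FDR alone was used. Calls past the 2-fold limit were tried on simulated data with fewer changed genes than here and larger changes than the members show. That check does not bear on the member results, which rest on the FDR alone. Sums and ratios other than those picked after their values were seen were tested by exact permutation of the libraries, two-sided. The members, the 9 lists and the alternatives (pseudocount, filter, 3 scalings, limma without a trend, replicate block, highest transcript, each library left out) were chosen with earlier results of these data known. Named genes were all members, the largest changes (at most 3) with an FDR under 0.05 in each list and 7 direct partners (TXN, TXN2, TXNRD1, TXNRD2, SRXN1, GSR and SOD1); others, such as markers and genes listed under 1 TPM, were picked after their values were seen. Ratios with PRDX1, PRDX3 or SOD1 were planned but are not used, since these genes are listed at 0 in most libraries. Leaving out CON replicate 3 and CDCA replicate 2 together was added after seeing the data. A gene that this rule names is not reported here.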

Additional observations from a re-analysis of the deposited data

How the results depend on the processing

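With no read counts, the precision of low values is unknown, and PRDX1, PRDX3 and SOD1 gave no usable value. The limit is not confined to these genes. FTH1 was listed at a mean of 0.57 TPM over the 6 libraries, beside FTL at 2437 TPM, and TFRC at 0.35 TPM. A low listed value can be a failed estimate for any gene, so no absence is read from it. The number of members with an FDR under 0.05 was 4, between 3 and 4 with each library left out, and 3 or 4 under each other setting, in which GPX4 and PRDX4 were lower throughout. With GCLC counted, the number of genes of the 9 lists past the 2-fold limit was 12. It lay between 10 and 13 with each library left out, and was 9 without CON replicate 3 and CDCA replicate 2. The number of member transcripts with an FDR under 0.05 was 5. It was 3 with no filter on low values, which tests more transcripts, and 3 without CON replicate 3 and CDCA replicate 2, which leaves fewer samples; with each library left out it lay between 3 and 4. The ratio of summed peroxiredoxins, CDCA to CON, lay between 0.836 and 0.858, and that of GPX4 to GPX1 between 0.571 and 0.632. Direction was reversed for GPX1 (-0.0841), CAT (-0.0262) and PDIA4 (-0.037) with mtDNA-encoded genes taken out of the totals. It was also reversed for PRDX6 without CON replicate 3 (0.11), without CDCA replicate 3 (0.017) and without CON replicate 3 and CDCA replicate 2 (0.06), and for PRDX1 without CDCA replicate 1 or 3 (0.15 in both). With each library left out, PRDX1 ranged from -0.53 to 0.15 and PRDX6 from -0.12 to 0.11; the cause was not tested.

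The labels do not say whether the replicate numbers pair the samples. The correlation of deviations from the group means was between -0.0916 and -0.0353 for libraries with the same number. No library correlated best with its own number. With 3 libraries per group this cannot exclude a pairing, which stays unknown. With the replicate number as a block, 4 members, 12 list genes and 4 member transcripts passed (log2 fold change of GPX4 -0.64), while RPL30 (limma FDR 0.058) and PDIA4 (0.061) did not.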
